A study of Mus musculus with 8 samples.

Results

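The genes described here carry glucose from the cell surface to the entry of pyruvate into the mitochondrion: glucose transporters, the glycolytic enzymes and their regulators, lactate dehydrogenases and transporters, the mitochondrial pyruvate carrier, the pyruvate dehydrogenase complex with its inhibitory kinases, and the aldose mutarotase Galm. The list held 36 genes by name. A gene was measured through probe sets that carry exactly 1 gene symbol, and the probe set with the highest mean over the 8 arrays stood for the gene, which gave 32 genes of 22180 in the series. Gpi1, Eno1 and Mpc2 had no named probe set, and the probe set of Aldoa was shared with another gene and was not used.

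The samples were endothelial cells sorted from mouse colon, a target organ of graft-versus-host disease, on day 2 after transplantation of bone marrow (1.5e+07 cells) and T cells (2e+06 cells). All recipients were female C57BL/6 mice conditioned for 5 days with busulfan and cyclophosphamide, so the controls share the conditioning and the transplant. The allogeneic group (n = 4 arrays) had LP/J donors and the syngeneic group (n = 4) C57BL/6 donors. Sorted cells were CD31-positive and lacked CD45 and CD11b. Values are log2 signals on Affymetrix Mouse Gene 2.0 arrays. They can be compared between arrays for 1 gene, not between genes.

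Glycolysis splits glucose into pyruvate in the cytosol. Hexokinase and phosphofructokinase are its main control points, and PFKFB enzymes set the level of fructose 2,6-bisphosphate, the strongest activator of phosphofructokinase. Pyruvate is either reduced to lactate and exported, or carried into the mitochondrion and turned into acetyl-CoA by pyruvate dehydrogenase, which PDK kinases switch off. Endothelial cells make most of their ATP by glycolysis, with PFKFB3 as a known driver in growing vessels, and colonocytes burn butyrate, which enters through the transporter encoded by Slc16a1.

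Epithelial genes gave signal on every array beside the endothelial ones. The endothelial marker Pecam1 (CD31) averaged 10.37 over the 8 arrays and the epithelial marker Epcam 9.36. Cdh5 averaged 9.69 on the allogeneic and 10.31 on the syngeneic arrays. Ptprc (CD45) and Itgam (CD11b) averaged 5.20 and 5.34, and 3 Y-linked genes lay between 2.28 and 3.18 in these female recipients. All 16 endothelial markers were lower in the allogeneic group, none past the threshold, where 49% of all genes had a change above 0. Their mean was 7.75 to 8.45 on the allogeneic arrays and 8.37, 8.08, 9.11 and 9.97 on syngeneic arrays 1 to 4. Eng (log2 change -1.43) and Robo4 (-1.08) had the smallest p among them. The mean of 18 colon epithelial markers was 10.57 to 10.78 on allogeneic and 9.96 to 10.61 on syngeneic arrays, lowest on syngeneic array 4. Of these, 16 were higher in the allogeneic group and Car2, a carbonic anhydrase of colonocytes, rose by 1.43 (limma adjusted p = 0.0238). That call was lost with the endothelial covariate (1.16, limma adjusted p = 0.0623), and without any 1 allogeneic array or syngeneic array 3, where the change was 1.31 to 1.48 (limma adjusted p at most 0.0825). Car2 is itself part of the epithelial mean, so that covariate is no test of it. Fewer cells of a type and less RNA per cell cannot be told apart in such bulk samples. The main results are therefore also given with these marker means as a covariate or without syngeneic arrays 3 and 4, which lay farthest from the others on the first principal component.

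No gene of the pathway passed the test across all genes. With limma and Benjamini-Hochberg adjustment over 22180 genes, 0 of 32 had an adjusted p below 0.05, against 0.469% of all genes, and the smallest adjusted p was that of Galm (0.108). Without adjustment 10 of 32 genes (31.2%) had a p below 0.05, against 13.2% of all genes. Of these 7 were higher in the allogeneic group (21.9%, against 7.81% of all genes) and 3 lower (9.38%, against 5.43%). The background includes many genes of low signal. When only genes above the median gene in mean signal were fitted, 8 of 26 members had such a p, against 20.2% of those genes. The shares that follow were not computed for that subset. The 4 allogeneic arrays lay wholly on one side of the 4 syngeneic arrays for 5 of 32 genes (15.6%), against 8.55% of all genes, with 4 higher (background 5.18%) and 1 lower (3.36%). Mpc1, among the 4 higher, rests on a probe set whose locus is in doubt, as set out below. The median log2 change (allogeneic minus syngeneic) was 0.05 over the 32 genes and -0.01 over all genes. The median size of the change, regardless of sign, was 0.23 against 0.14. A change above 0 was found in 17 of 32 genes (53.1%), against 49% of all genes.

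**Figure D1:**
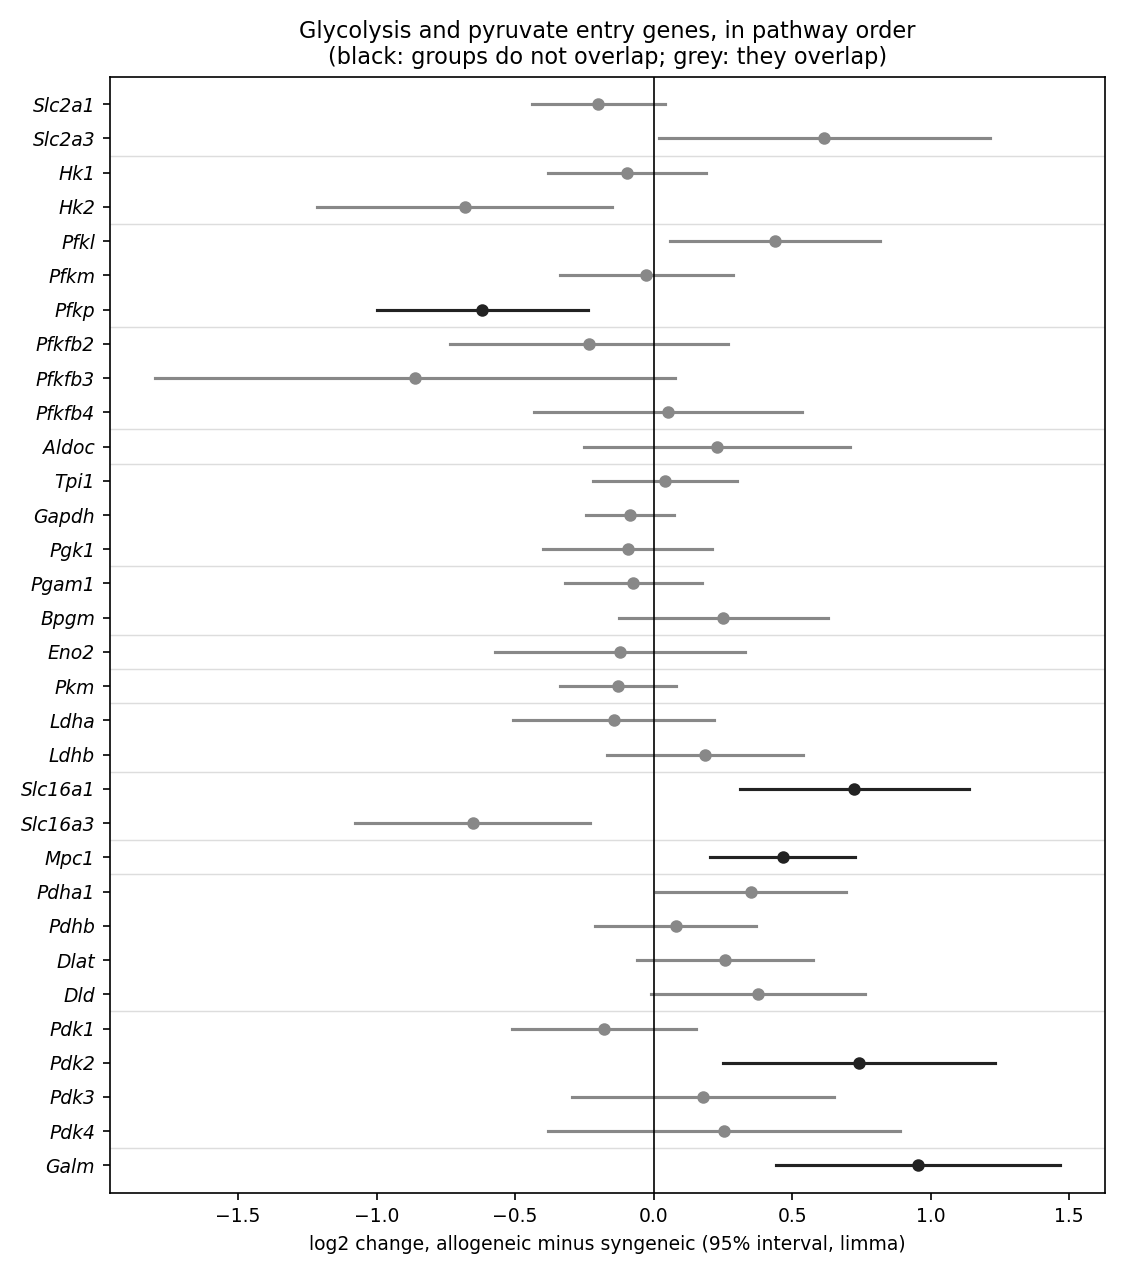
Log2 change (allogeneic minus syngeneic, 4 arrays each) of the 32 measured genes in pathway order, with 95% intervals from limma; grey lines separate the steps. The 5 genes in black, whose groups do not overlap, are Pfkp on the lower side and Slc16a1, Mpc1, Pdk2 and Galm on the higher side. The listed trunk genes from Tpi1 to Pkm lie near 0, and the enolase Eno3, outside the list, is not drawn.

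Isozymes of the same step were set side by side. Within-array differences of 17 pairs (isozymes, or subunits of a complex) were compared, and in 4 of them the groups did not overlap: Slc16a1 and Slc16a3, Pfkl and Pfkp, Pdk1 and Pdk2, and Slc2a1 and Slc2a3. No pair passed after adjustment, and no share over other gene pairs was computed. The promoters of the first 3 of these pairs are shown, since both members of each were in the promoter table used. Slc2a3 was not. Each is the 250 bases upstream of the outermost start listed in RefSeq for GRCm38.p6, 5′ to 3′ on the gene's strand. Capitals mark the core letters bound by hypoxia-inducible factors, ACGTG or GCGTG, or their reverse complements CACGT and CACGC.
Slc16a1, chr3:104638414-104638663 (plus strand): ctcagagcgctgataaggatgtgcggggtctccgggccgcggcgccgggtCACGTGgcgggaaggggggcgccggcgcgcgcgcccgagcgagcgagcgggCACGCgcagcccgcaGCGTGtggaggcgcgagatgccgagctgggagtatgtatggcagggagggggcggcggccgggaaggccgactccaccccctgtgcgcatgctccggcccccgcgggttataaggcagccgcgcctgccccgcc
Slc16a3, chr11:120948817-120949066 (plus strand): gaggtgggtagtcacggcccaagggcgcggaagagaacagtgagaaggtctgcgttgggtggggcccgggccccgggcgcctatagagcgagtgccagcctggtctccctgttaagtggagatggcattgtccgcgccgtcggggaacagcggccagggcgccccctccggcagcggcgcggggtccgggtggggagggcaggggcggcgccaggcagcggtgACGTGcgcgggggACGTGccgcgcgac
Pfkl, chr10:78009808-78010057 (minus strand): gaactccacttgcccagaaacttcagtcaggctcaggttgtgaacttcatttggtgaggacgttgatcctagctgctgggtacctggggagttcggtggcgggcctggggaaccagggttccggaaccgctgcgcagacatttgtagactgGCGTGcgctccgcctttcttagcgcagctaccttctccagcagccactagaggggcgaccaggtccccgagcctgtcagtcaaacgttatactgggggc
Pfkp, chr13:6648772-6649021 (minus strand): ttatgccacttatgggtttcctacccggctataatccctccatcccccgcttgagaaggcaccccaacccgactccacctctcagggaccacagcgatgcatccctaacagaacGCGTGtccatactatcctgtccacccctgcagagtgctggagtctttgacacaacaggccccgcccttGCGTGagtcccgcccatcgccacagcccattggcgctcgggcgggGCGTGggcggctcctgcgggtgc
Pdk1, chr2:71872974-71873223 (plus strand): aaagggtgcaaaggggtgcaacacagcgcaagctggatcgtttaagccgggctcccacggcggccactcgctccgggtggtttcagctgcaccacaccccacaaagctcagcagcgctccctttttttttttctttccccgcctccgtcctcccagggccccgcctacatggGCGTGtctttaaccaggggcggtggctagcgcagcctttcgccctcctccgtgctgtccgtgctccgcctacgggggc
Pdk2, chr11:95041372-95041621 (minus strand): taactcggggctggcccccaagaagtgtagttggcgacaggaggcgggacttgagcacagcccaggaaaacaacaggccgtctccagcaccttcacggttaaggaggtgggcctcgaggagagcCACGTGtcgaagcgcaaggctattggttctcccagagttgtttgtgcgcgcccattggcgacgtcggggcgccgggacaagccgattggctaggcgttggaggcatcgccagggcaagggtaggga
All 6 windows hold at least 1 such core, with 4 matches in Slc16a1, 3 in Pfkp, 2 each in Slc16a3 and Pdk2, and 1 each in Pfkl and Pdk1. In Slc16a1 and Pdk2 a pair of matches overlaps in the palindrome CACGTG, which is also an E-box, the binding site of MYC and related factors. Of the 30 measured genes with a listed promoter 23 hold a core (76.7%), against 38.6% of 27025 genes of the same table. That table was not limited to genes with signal here, and base composition was not matched, so the shares are not a test of enrichment. A match is a description of letters only, and genes on both sides of the comparison carry it.

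Both measured glucose transporters overlapped between the groups. Slc2a1 encodes GLUT1, a widespread glucose transporter. Its log2 signal was 9.81, 9.47, 9.65 and 9.80 on allogeneic arrays 1 to 4 and 9.82, 9.96, 9.97 and 9.77 on syngeneic arrays 1 to 4. The groups overlapped and the log2 change was -0.20 ± 0.11 (SE, limma adjusted p = 0.469). Slc2a3 encodes the high-affinity transporter GLUT3. It read 4.64, 4.38, 4.52 and 5.67 against 3.94, 3.92, 4.32 and 4.56, with allogeneic array 4 well above the rest and an overlap of the groups. The log2 change of 0.62 ± 0.27 did not pass (limma adjusted p = 0.362) and was 0.33 without allogeneic array 4. It was 0.96 with the endothelial covariate, 0.78 with the epithelial one and 0.87 without syngeneic arrays 3 and 4, and passed in none of these. The within-array difference Slc2a1 minus Slc2a3 was lower by 0.82 in the allogeneic group, from 5.22 to 6.04 on syngeneic and from 4.12 to 5.17 on allogeneic arrays.

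At the first enzymatic step Hk2, the inducible hexokinase that binds mitochondria, read 7.47, 7.43, 7.54 and 7.14 on the allogeneic arrays. The syngeneic arrays gave 8.43, 8.38, 8.22 and 7.27. Syngeneic arrays 1 to 3 lay above every allogeneic array and array 4 lay among them. The change was -0.68 ± 0.24 (SE, n = 4 each, limma adjusted p = 0.251), a signal 1.60-fold lower. Without syngeneic array 4 it was -0.95 and passed the threshold (limma adjusted p = 0.0241). It was -1.08 with the endothelial and -1.19 with the epithelial covariate, neither of them past it (limma adjusted p = 0.066 and 0.177). Hk1, the constitutive hexokinase, lay between 6.17 and 6.54 on all arrays with a change of -0.09 (95% interval -0.38 to 0.19). The groups overlapped in the difference Hk1 minus Hk2 (0.59, interval -0.10 to 1.27).

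Phosphofructokinase commits sugar to glycolysis, and its platelet and liver isoforms leaned opposite ways. Pfkp was 9.37, 9.51, 9.21 and 9.15 on the allogeneic and 10.13, 10.33, 9.74 and 9.53 on the syngeneic arrays, with no overlap. Its mean was 9.31 ± 0.16 against 9.93 ± 0.36 (SD, n = 4 each). The allogeneic signal was thus 1.54-fold lower (-0.62 ± 0.17 on the log2 scale, SE, limma adjusted p = 0.147). Pfkp passed the threshold with the endothelial marker mean as covariate (-0.93, limma adjusted p = 0.0203) and without syngeneic arrays 3 and 4 (-0.92, limma adjusted p = 0.0365), but not with the epithelial one (-0.95, limma adjusted p = 0.177). Pfkl read 7.92, 7.66, 7.95 and 7.56 against 7.46, 7.60, 7.34 and 6.93, overlapping only between allogeneic array 4 and syngeneic array 2. Its change of 0.44 ± 0.17 (limma adjusted p = 0.299) became 0.22, 0.14 and 0.24 in the same 3 settings. The muscle isoform Pfkm (3.76 to 4.31 over the 8 arrays) had a change of -0.03.

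Set within each array, Pfkl minus Pfkp was -1.45, -1.85, -1.27 and -1.60 on the allogeneic and -2.67, -2.73, -2.39 and -2.60 on the syngeneic arrays. The gap shifted by 1.06 (95% interval 0.70 to 1.41), a 2.08-fold shift of Pfkl relative to Pfkp. The two-sided exact permutation p was 0.0286, the smallest that 4 against 4 arrays allow, and 0.121 after Benjamini-Hochberg adjustment over the 17 pairs, so no pair passed. The shift was 1.15 and 1.09 with the endothelial and epithelial covariates, 1.16 without syngeneic arrays 3 and 4, and 0.97 to 1.16 with any single array left out.

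Among the PFKFB enzymes Pfkfb3 gave the most uneven values. It read 6.15, 5.51, 6.50 and 6.04 on the allogeneic and 6.87, 5.71, 6.87 and 8.19 on the syngeneic arrays, with the peak on syngeneic array 4, where the endothelial markers peaked as well. The change of -0.86 ± 0.43 (limma adjusted p = 0.425) was -0.08 with the endothelial covariate, 0.04 with the epithelial one and -0.24 without syngeneic arrays 3 and 4. Pfkfb2, the heart-type enzyme, lay between 7.31 and 8.39 with a change of -0.23 (interval -0.74 to 0.27), which was -0.61, -0.65 and -0.62 in the same 3 settings. Pfkfb4 lay between 4.37 and 5.29 with a change of 0.05 (-0.43 to 0.54).

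Among the listed genes, the trunk of glycolysis from triose phosphate to pyruvate showed small differences. The 6 that were measured had changes between -0.13 (Pkm) and 0.04 (Tpi1), and 0 of 6 reached an unadjusted p of 0.05. With the covariates and without syngeneic arrays 3 and 4 the 6 lay between -0.29 (Pgk1) and 0.12 (Eno2). After each array was centred on its median they lay between -0.06 (Pkm) and 0.10 (Tpi1). The enolase Eno1 was not measured. Eno3, an enolase outside the list, rose by 0.99 (limma adjusted p = 0.0238), a call lost in several settings given below. Gapdh, the dehydrogenase often used as a reference gene, was 11.94 ± 0.09 against 12.02 ± 0.09 (SD, n = 4 each), a change of -0.08 (95% interval -0.24 to 0.07). Pkm, the pyruvate kinase of most adult tissues and tumours, was 9.78 ± 0.12 against 9.90 ± 0.04, a change of -0.13 (-0.34 to 0.08). Pgk1, which makes the first ATP of the trunk, was at -0.09, the mutase Pgam1 at -0.07 and the neuronal enolase Eno2 at -0.12. Gapdh and Pgam1 have near-identical copies in the mouse genome. Their other probe sets gave -0.10 and 0.10 for Gapdh and 0.09 for Pgam1. The probe set numbers of most members run in chromosome blocks, sorted as text. Gapdh lies on chromosome 6, but the set used falls between those of Slc16a3 and Pdk2, both on 11. Pgam1 lies on 19, but the set used falls between those of Slc16a1 on 3 and Slc2a1 on 4. Neither set used thus appears to lie at its gene, and positions were not examined. Aldoc, the brain-type aldolase, was at 0.23 ± 0.22 and Bpgm, which makes 2,3-bisphosphoglycerate in red cells, at 0.25 ± 0.17. The erythroid marker Slc4a1 differed by 0.06.

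Lactate handling gave the widest isozyme contrast. Slc16a1 encodes MCT1, which carries lactate, pyruvate and butyrate. It read 9.06, 8.87, 8.79 and 9.02 on the allogeneic arrays and 8.42, 8.66, 8.002 and 7.76 on the syngeneic arrays, with no overlap. The change was 0.73 ± 0.19 (SE, n = 4 each, limma adjusted p = 0.127), or 1.65-fold. Syngeneic arrays 3 and 4, with the most endothelial signal, were the lowest, and the change was 0.41 with the endothelial covariate, 0.29 with the epithelial one and 0.40 without both arrays. Slc16a3 encodes MCT4, the exporter of strongly glycolytic cells. It was 5.10, 4.79, 4.82 and 4.76 on the allogeneic and 5.71, 5.55, 5.86 and 4.97 on the syngeneic arrays, overlapping through syngeneic array 4 alone. Its change of -0.65 ± 0.19 (limma adjusted p = 0.167) was -0.84 and past the threshold without that array (limma adjusted p = 0.0458), and -0.88, -0.95 and -0.76 in the 3 settings above.

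The within-array difference Slc16a1 minus Slc16a3 was 3.96, 4.08, 3.97 and 4.26 on the allogeneic and 2.71, 3.11, 2.14 and 2.79 on the syngeneic arrays. It shifted by 1.38 (95% interval 0.86 to 1.90), or 2.60-fold in favour of Slc16a1. The exact permutation p was 0.0286 (adjusted 0.121 over 17 pairs), and the shift stayed between 1.16 and 1.52 in the settings run. The dehydrogenases did not show such a gap. Ldha, which favours lactate formation, was at -0.14 ± 0.16 and Ldhb, which favours its oxidation, at 0.19 ± 0.16, and their difference overlapped between the groups (-0.33, interval -0.94 to 0.28).

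**Figure D2:**
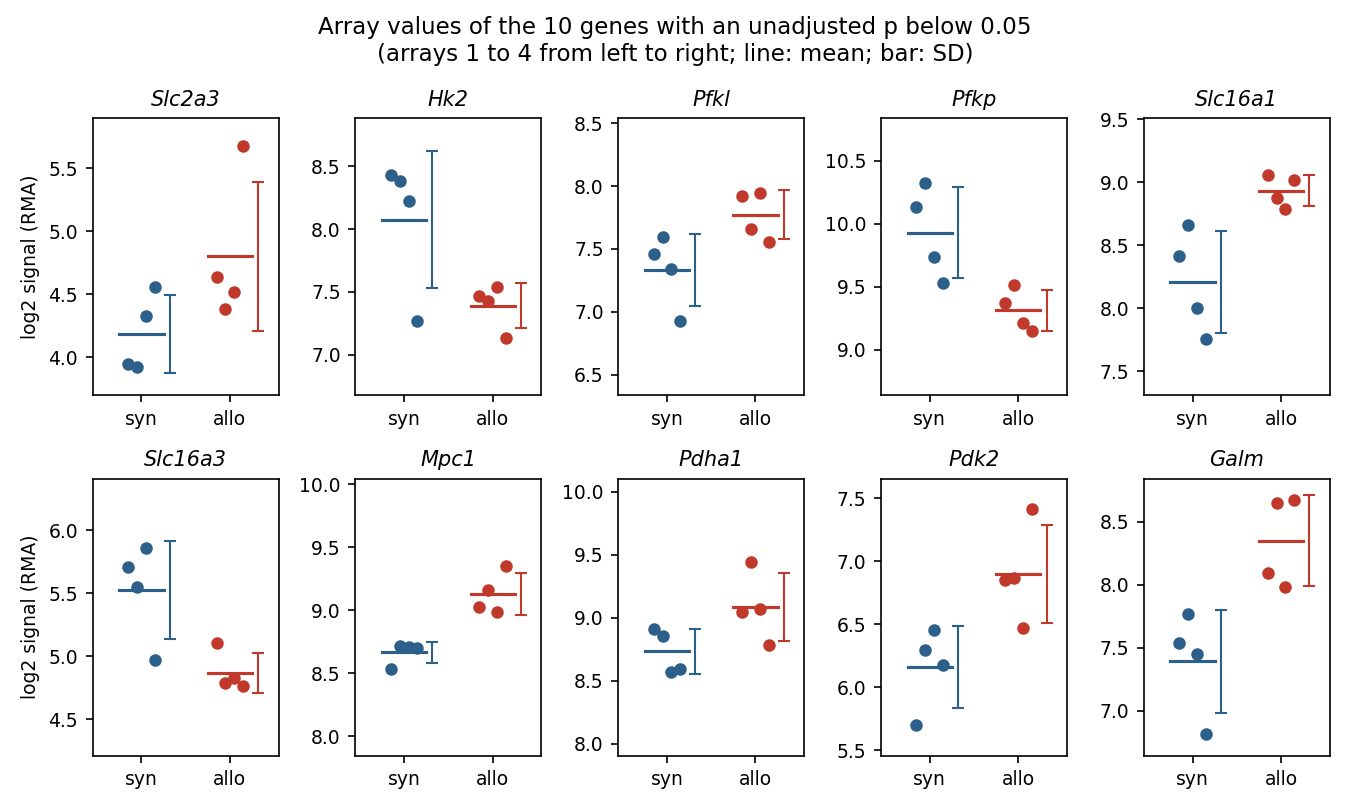
Log2 signal on each array (points, arrays 1 to 4 from left to right in each group), with group means (lines) and SD (bars), for the 10 genes with an unadjusted p below 0.05; every panel spans the same 2.2 log2 units. Hk2 and Slc16a3 overlap through syngeneic array 4 alone, and Mpc1 has the tightest syngeneic group of the genes shown.

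For pyruvate entry all 5 measured genes were above 0 (median 0.35), against 49% of all genes. Of these 2, Mpc1 and Pdha1, had an unadjusted p below 0.05, against 7.81% of all genes in that direction. Mpc1, a subunit of the mitochondrial pyruvate carrier, read 9.03, 9.16, 8.99 and 9.36 on the allogeneic and 8.54, 8.72, 8.71 and 8.70 on the syngeneic arrays, with no overlap. The means were 9.13 ± 0.17 and 8.67 ± 0.09 (SD, n = 4 each), a change of 0.47 ± 0.12 (SE, limma adjusted p = 0.121), or 1.38-fold. It was 0.51 with the endothelial covariate, 0.48 with the epithelial one and 0.51 without syngeneic arrays 3 and 4. Another probe set of Mpc1 gave 0.20 ± 0.12, which did not reach an unadjusted p of 0.05. With both probe sets averaged the change was 0.33 (limma adjusted p = 0.238). In the order of probe set numbers, the set used falls between those of Dld on chromosome 12 and Pfkp on 13. Mpc1 lies on chromosome 17. Its other set falls between those of Pfkm on 15 and Pdk1 on 2, where 17 sorts as text. The set used thus does not appear to lie at the gene, and its values may not be those of Mpc1. The genomic positions of the probe sets were not examined.

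The pyruvate dehydrogenase subunits Pdha1 (0.35 ± 0.15), Dlat (0.26 ± 0.14), Dld (0.38 ± 0.17) and Pdhb (0.08 ± 0.13) were all above 0 and none passed (limma adjusted p = 0.363, 0.480, 0.392 and 0.852). Pdha1, the catalytic subunit that PDK kinases phosphorylate, was 9.04, 9.44, 9.07 and 8.78 against 8.91, 8.86, 8.57 and 8.59. For each of the 4 subunits every allogeneic array lay above the syngeneic mean, yet the groups overlapped. Without syngeneic arrays 3 and 4 the changes were 0.20 for Pdha1, 0.13 for Dlat, 0.14 for Dld and -0.12 for Pdhb.

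Of the 4 kinases that inhibit the complex, Pdk2 stood apart. It read 6.85, 6.87, 6.47 and 7.41 on the allogeneic arrays and 5.70, 6.30, 6.45 and 6.18 on the syngeneic arrays. The groups were separated by a narrow margin between allogeneic array 3 and syngeneic array 3. The change was 0.74 ± 0.22 (SE, n = 4 each, limma adjusted p = 0.176), or 1.67-fold, and 0.82, 0.76 and 0.90 in the settings with covariates and without syngeneic arrays 3 and 4. Pdk1, a hypoxia-induced kinase, was at -0.18 ± 0.15 (limma adjusted p = 0.667), and the groups overlapped. Allogeneic arrays 1 and 4 (both 6.29) lay at the syngeneic mean of 6.29. Another probe set of Pdk1, with a mean signal of only 2.84, gave 0.07. Pdk3 was at 0.18 ± 0.21. Pdk4, which fasting and fatty acids induce, was at 0.25 ± 0.29, and its allogeneic values of 5.10, 4.36, 4.73 and 6.00 spread over more than the whole syngeneic range of 4.63 to 4.89.

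Pdk1 minus Pdk2 was -0.56, -0.99, -0.47 and -1.12 on the allogeneic and 0.79, -0.13, -0.12 and 0.01 on the syngeneic arrays. It shifted by -0.92 (95% interval -1.59 to -0.26, exact permutation p = 0.0286, adjusted 0.121 over 17 pairs). With the mean of all probe sets of Pdk1 in place of its brightest, the p was 0.0571. The other 5 kinase pairs overlapped between the groups. For Slc2a1 minus Slc2a3 the interval was -1.58 to -0.06 at the same p, and with all probe sets of Slc2a1 averaged the p was 0.114. Leaving out any 1 allogeneic array brought the exact permutation p of Slc2a1 minus Slc2a3 to 0.0571, and leaving out syngeneic array 1 did so for Pdk1 minus Pdk2.

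**Figure D3:**
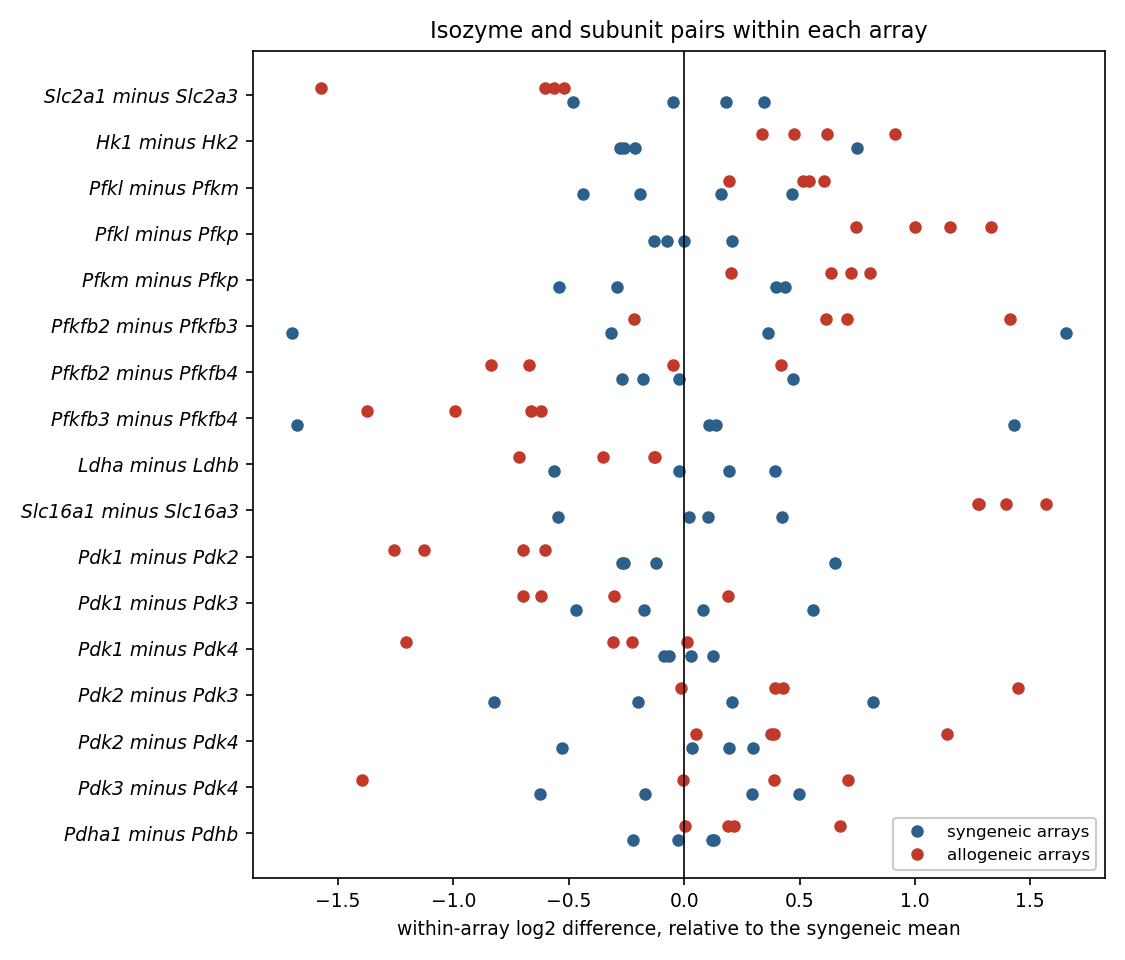
Within-array log2 difference of each of the 17 pairs on each array, relative to the pair's syngeneic mean (blue: syngeneic arrays; red: allogeneic arrays). The groups do not overlap in Slc2a1 minus Slc2a3, Pfkl minus Pfkp, Slc16a1 minus Slc16a3 and Pdk1 minus Pdk2, and overlap in the other 13.

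Galm, the mutarotase that interconverts the anomers of glucose and galactose, had the largest change of the 32 genes. Its values were 8.09, 8.65, 7.99 and 8.67 on the allogeneic arrays and 7.54, 7.77, 7.45 and 6.82 on the syngeneic arrays, with no overlap and the lowest value on syngeneic array 4. The change was 0.95 ± 0.23 (SE, n = 4 each, limma adjusted p = 0.108), or 1.94-fold. It was 0.66 with the endothelial covariate, 0.55 with the epithelial one and 0.69 without syngeneic arrays 3 and 4.

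**Figure D4:**
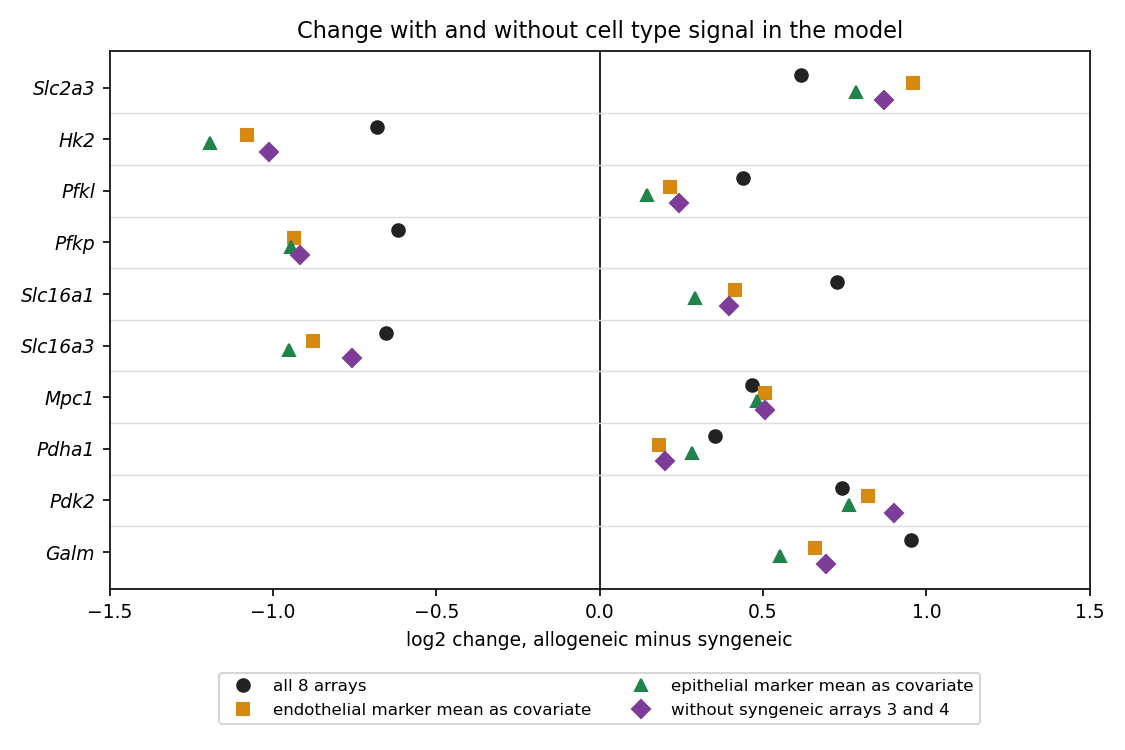
Log2 change (allogeneic minus syngeneic) of the 10 genes with an unadjusted p below 0.05, from all 8 arrays, with an endothelial or an epithelial marker mean as covariate, and without syngeneic arrays 3 and 4. In all 4 settings Hk2, Pfkp and Slc16a3 lie below 0, and farther from it in the other 3 than with all 8 arrays. Slc2a3, Mpc1 and Pdk2 stay above 0 at or beyond their values from all 8 arrays. Pfkl, Slc16a1, Pdha1 and Galm lie closer to 0 in the other 3 settings.

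Other genes of glucose metabolism were read from lists. Of 25 measured isozymes and transporters outside the list, 1 passed in the higher direction (background 0.356% of all genes, and 0.113% in the lower): Eno3, the muscle-type enolase. Its values were 8.56, 8.20, 8.63 and 8.77 on the allogeneic and 7.65, 7.43, 7.51 and 7.61 on the syngeneic arrays. It rose 1.98-fold (log2 change 0.99 ± 0.15 SE, limma adjusted p = 0.0238). The call held with the endothelial covariate (1.08, limma adjusted p = 0.0483) and was lost with the epithelial one (0.95, limma adjusted p = 0.207) and without syngeneic arrays 3 and 4 (1.00, limma adjusted p = 0.0739). It was also lost without allogeneic array 1, 3 or 4 or syngeneic array 1 or 3, where the adjusted p was at most 0.102.

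The other metabolic lists held no call. All 8 gluconeogenesis genes were above 0 (median 0.38), with Pck1, which makes phosphoenolpyruvate from oxaloacetate, at 1.11 ± 0.28 and the fructose bisphosphatase Fbp2 at 0.62 ± 0.18 (limma adjusted p = 0.121 and 0.168). All 7 measured genes of the first part of the TCA cycle were above 0 (median 0.33), with the isocitrate dehydrogenases Idh3g at 0.34 ± 0.09 and Idh2 at 0.50 ± 0.15. Among 8 pyruvate dehydrogenase phosphatases, further subunits and lipoylation genes (median 0.16), Pdpr, a regulator of the phosphatase that reactivates the complex, was at 0.63 ± 0.15 (limma adjusted p = 0.103) and Lias at 0.23 ± 0.12. In the pentose phosphate pathway (5 measured, median 0.18) Taldo1 was at 0.25 and Rpia at 0.39. The median of all genes was -0.01, and 49% of all genes were above 0.

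Regulators of glycolytic genes lay on both sides: of 21 measured, 11 were above 0, and 4 were higher and 3 lower at an unadjusted p below 0.05. Of all genes, 49% were above 0, and 7.81% were higher and 5.43% lower at that p. Hif1a, the oxygen-regulated subunit of the factor that induces many glycolytic genes, was 8.80, 8.39, 9.09 and 8.53 on the allogeneic and 9.24, 9.23, 9.17 and 9.21 on the syngeneic arrays, with no overlap. Its change was -0.51 ± 0.15 (SE, limma adjusted p = 0.168), and Egln3, a prolyl hydroxylase that is itself induced by hypoxia, was at -0.59 ± 0.19 (limma adjusted p = 0.207). Of 14 hypoxia-induced genes outside glycolysis (median -0.12) 6 were above 0, and 3 were lower and 0 higher at an unadjusted p below 0.05. P4ha2, a collagen prolyl hydroxylase, was at -0.60 ± 0.15 and Vegfa at -0.44 ± 0.12 (limma adjusted p = 0.121 and 0.142). Of the other cell types, the leukocyte marker S100a8 fell (limma adjusted p = 0.00424), the only call among 14 leukocyte markers. It read 2.59, 3.01, 3.27 and 3.41 on the allogeneic and 5.25, 5.08, 4.75 and 4.97 on the syngeneic arrays. The allogeneic values are of the order of the Y-linked genes above, so the size of the change is not given. None of 12 stromal markers passed (Pdgfra 1.03, Des -0.63). The part of epithelial, endothelial and other cell content in the values of the pathway was not tested beyond the covariates given.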

How the data were processed

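RNA of sorted colon endothelial cells was measured on 8 arrays, 4 per group by the sample titles. RNA (700 pg) was amplified before labelling, per the labels' protocols. The values are log2 signals as deposited, for which the submitters' processing notes name Affymetrix Expression Console 1.4.1 with RMA. RMA includes quantile normalization of probe signals, which can hide a shift shared by most genes. The medians of the deposited probe set values still differed. They were 4.68 to 4.72 on allogeneic and 4.73 to 4.79 on syngeneic arrays. Centring each array on its median therefore raised every change by the same amount. Of all genes, 7.93% then lay apart on the higher and 1.87% on the lower side, against 5.18% and 3.36% before. Of 41345 probe sets 23521 carried 1 symbol in the platform annotation, 1814 several and 16010 none. Where several named the same gene (1082 genes) the brightest was used, which gave 22180 genes. The annotation's build is not given in the sources used here. No detection call, batch or date was used here.

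A linear model (limma 3.58.1 in R 4.3.3, intensity trend, prior df 4.65) was fitted to all genes and p-values adjusted by Benjamini-Hochberg (threshold 0.05). Intervals of single genes are limma's 95% intervals, and those of pairs use the pooled spread of 4 arrays per group. Each pair had a two-sided exact permutation test over the splits of the arrays. The pipeline was tested on simulated data with changes put into genes above the median signal. Of these 14.7% passed the threshold at 1.5-fold, 64.7% at 2-fold and 96% at 4-fold. A gene that did not pass may therefore still have changed. The titles name biological replicates, and the p-values measure the spread between these samples.

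Members and lists were chosen with earlier results of these data known. Named genes are all members, and from each list the genes past the threshold (up to 4) or else the 2 with the smallest p, plus 5 sort and cell type markers. The nearest genes of a member past the threshold were to be named too, and no member passed. Alternatives covered variance prior, filter, scaling, weights, probe sets, replicate block, covariates and arrays left out. Of 170 listed further genes 152 were measured. Promoters are from RefSeq (GRCm38.p6), matched by symbol for 34 of 36 genes.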

Additional observations from a re-analysis of the deposited data

Results flagged for a closer look

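Within a group of 4 arrays, 1 array stood far from the other 3 in 5 of the 64 groups examined (32 genes, both donor types), or 7.81%, where chance flags about 1 in 20. Hk1 read 6.17 on allogeneic array 1 (others 6.38 to 6.42). Pdk3 read 8.01 on allogeneic array 4 (others 8.49 to 8.53). Syngeneic array 2 was high for Pfkfb4 at 5.26 (others 4.60 to 4.63) and for Bpgm at 5.49 (others 5.11 to 5.17). Mpc1 read 8.54 on syngeneic array 1 (others 8.70 to 8.72), below the rest of its group and farther from the allogeneic arrays.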

How the results depend on the processing

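The count of 0 genes past the threshold stayed at 0 with other variance priors, a filter on low signal, median centring, array weights, averaged or separate probe sets and the replicate block. It was 1 (Pfkp) with the endothelial covariate and 1 (Pfkp) without syngeneic arrays 3 and 4, 0 to 2 with 1 array left out (Hk2 and Slc16a3 without syngeneic array 4), 0 at an adjusted p below 0.1 and 10 without adjustment. Genes with an unadjusted p below 0.05 numbered 7 to 11, while the share of all genes ranged from 8.3% (epithelial covariate) to 20.2% (filter on low signal). Genes whose groups do not overlap numbered 5 to 9 with 1 array left out, where 11.2% or more of all genes do so (8.55% with all arrays), and 15 without syngeneic arrays 3 and 4, where 20.7% of all genes do so. Some changes turned sign. Centring raised every change by the same amount, and Pfkm was then 0.038. Averaging its probe sets (-0.07 and 0.09) put Pgam1 at 0.0061. The cause of the other sign changes was not tested. With array weights Pfkm was 0.051 and Tpi1 -0.012. With the endothelial covariate, the epithelial covariate and without syngeneic arrays 3 and 4, in that order, values were 0.041, 0.012 and 0.093 for Pfkm, -0.14, -0.24 and -0.15 for Tpi1, -0.028, -0.17 and -0.039 for Aldoc, 0.055, 0.12 and 0.066 for Eno2, -0.060, -0.11 and -0.12 for Pdhb, -0.10, -0.079 and -0.18 for Pdk3, and -0.53, -0.69 and -0.38 for Pfkfb2 minus Pfkfb3. With the epithelial covariate Pfkfb3 was 0.040, Pfkfb3 minus Pfkfb4 0.29 and Pfkfb4 -0.25, and Pfkfb4 was -0.11 without syngeneic arrays 3 and 4. With 1 array left out the ranges were -0.14 to 0.041 for Pfkm, -0.24 to 0.033 for Eno2, -0.10 to 0.21 for Pfkfb4, -0.062 to 0.48 for Pdk4, -0.014 to 0.20 for Pdhb, -0.074 to 0.13 for Tpi1 and -0.34 to 0.37 for Pdk3 minus Pdk4. Eno3 also lost its call when all probe sets were tested together (limma adjusted p = 0.0653). Same-numbered arrays did not deviate together over all genes (correlations 0.05, 0.05, -0.10 and 0.10). No pairing by number was seen, though such a check could miss a weak one. With the replicate block 68 of all genes passed against 104, 0 of them members. The smallest exact permutation p of an isozyme pair was then 0.125, the lowest that 4 blocks allow, so that setting could pass no pair. With all 8 arrays 4 of the 17 pairs reached the smallest exact permutation p possible (0.0286), which was 0.121 after adjustment.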
